A study of Drosophila melanogaster with 3 samples.

Results

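Single-start promoter peaks are CG12942 peaks at genes that begin from about 1 place, away from close pairs of genes that point apart. They were taken from the authors' optimal peak set on the dm6 build by 3 conditions on the summit, the highest point of a peak. The summit lay within 500 bp of the transcription start site (TSS) of a protein-coding transcript. It lay more than 500 bp from any head-to-head pair, meaning 2 protein-coding TSSs on opposite strands that point away from each other and lie at most 500 bp apart. The gene with the nearest TSS had all its protein-coding TSSs within 100 bp of each other. These conditions use the annotation and the summit position and no measure of peak strength. They were met by 573 of the 3844 optimal peaks, or 14.9%, at 552 genes. The other promoter peaks were 777 at head-to-head pairs and 658 at multi-start genes, whose TSSs spread over more than 100 bp, and 1836 peaks lay away from promoters.

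The data come from ChIP-seq, in which DNA bound by a protein is pulled down with an antibody and sequenced. The flies were Drosophila melanogaster of the transgenic strain CG12942-GFP, which stably expresses CG12942 with green fluorescent protein at its C terminus, and the antibody recognised the fluorescent protein. Embryos of both sexes were pooled from 0 to 24 hours of development, so each value is an average over all embryonic cell types and stages. The labels do not say which promoter drives the fusion. The samples are 3 biological replicates of this 1 group, each with a biosample of its own and all from 1 fly line, so no other genotype or treatment enters any comparison.

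A promoter is the stretch of DNA around a TSS where the general transcription factors and RNA polymerase II assemble. In Drosophila, promoters of genes used in every cell often carry the DNA replication-related element DRE (TATCGATA) or Ohler motif 1 (GGTCACAC), while many regulated genes carry a TATA box (TATAAA) or the Initiator (TCAGT here). Ribosomal protein genes are transcribed strongly in nearly all growing cells and start within a pyrimidine-rich stretch known as the TCT motif. Many genes of the compact fly genome share 1 upstream region with a divergent neighbour, so a peak between such genes cannot be assigned to 1 of them. At a single-start promoter a peak is placed relative to the nearest gene and its direction of transcription, though another gene can still start nearby.

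The sequences below are 81 bases long, centred on the summit and written 5' to 3' along the strand of the gene, from the reference genome of the dm6 assembly (RefSeq). All lie upstream of the TSS and outside UTRs. The arm that holds mRpL41 and eIF6 was left out, so each set holds the strongest regions of the other arms only. The first set holds the strongest such summit regions with any of 19 fixed motifs or the leading 7-base word TATTTAA within the 81 bases. Capitals mark those motifs. They are AP-1 (TGANTCA) and the BEAF core (CGATA) in CG14100, the TATA box, Initiator and homeodomain motif (TAATTA) in CG18549, the TATA box in CG31145, AP-1 in RluA-1, TATTTAA in aay, and the TATA box and BEAF core in CG11857. Motifs were read on both strands, so TATCG marks the BEAF core and TTTATA the TATA box.
CG14100, chr3L:19590585-19590665, minus strand: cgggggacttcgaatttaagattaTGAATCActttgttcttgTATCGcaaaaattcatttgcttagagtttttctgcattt
CG18549, chr3R:12449126-12449206, plus strand: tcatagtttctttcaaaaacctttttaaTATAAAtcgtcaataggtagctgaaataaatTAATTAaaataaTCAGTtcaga
CG31145, chr3R:23669807-23669887, minus strand: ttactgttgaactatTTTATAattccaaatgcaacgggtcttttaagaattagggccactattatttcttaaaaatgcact
RluA-1, chr2L:10474478-10474558, minus strand: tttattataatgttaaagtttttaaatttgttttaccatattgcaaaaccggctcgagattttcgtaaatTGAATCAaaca
aay, chr3L:9423011-9423091, plus strand: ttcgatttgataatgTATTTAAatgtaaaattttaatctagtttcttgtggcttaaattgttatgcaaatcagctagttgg
CG11857, chr3R:25258772-25258852, plus strand: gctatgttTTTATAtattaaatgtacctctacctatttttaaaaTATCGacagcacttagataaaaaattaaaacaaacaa
The next set holds the strongest such regions with CAACACT, and capitals mark it on either strand (AGTGTTG on the other). This word was chosen after its counts were seen.
RpL23A, chr3L:1668709-1668789, minus strand: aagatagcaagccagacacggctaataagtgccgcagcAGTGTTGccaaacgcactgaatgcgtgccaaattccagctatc
CG7379, chr3R:17798351-17798431, minus strand: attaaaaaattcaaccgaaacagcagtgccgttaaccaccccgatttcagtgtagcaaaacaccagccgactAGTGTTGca
Phs, chr3L:15619739-15619819, plus strand: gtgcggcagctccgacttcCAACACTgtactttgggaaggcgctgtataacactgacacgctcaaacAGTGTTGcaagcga
The last set holds the strongest such regions with ACTATCG, in capitals on either strand, where the complementary strand reads CGATAGT. It was also chosen after its counts were seen.
l(3)psg2, chr3L:5583484-5583564, plus strand: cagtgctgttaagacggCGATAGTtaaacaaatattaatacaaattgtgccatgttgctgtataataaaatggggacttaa
nxf4, chr3R:7346628-7346708, plus strand: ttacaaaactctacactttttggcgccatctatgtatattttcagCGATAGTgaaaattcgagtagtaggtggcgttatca
Cox17, chrX:15084730-15084810, minus strand: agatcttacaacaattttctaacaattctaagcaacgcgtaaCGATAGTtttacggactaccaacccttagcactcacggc
The regions of CG18549 and CG11857 had a GC content of 22.2% each, against 50.6% for RpL23A and 53.1% for Phs, so single-start summits ranged from AT-rich to GC-balanced DNA.

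The replicate lists are relaxed and hold 30000, 30000 and 27869 peaks on the 6 chromosome arms in replicates 1, 2 and 3. To set them beside the optimal set, the 3844 peaks of highest signal were taken from each. By the same 3 conditions these held 576, 616 and 576 single-start promoter peaks (15.3% ± 0.601 of the list, SD, n = 3). The files hold no read totals, so sequencing depth is unknown here. The signal is the authors' peak strength, and since its scale differs between lists it is used here only to rank peaks within a list.

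The strongest single-start peak, at the gene CG14100, was the strongest peak of the whole optimal set and of every replicate. Its signal was 568, 613 and 720 in replicates 1, 2 and 3, and its summit lay 101 bp upstream of the TSS. The peak spans chr3L:19590416-19590813 between annotated genes. Next came mRpL41, a protein of the mitochondrial ribosome, at ranks 11, 6 and 8 in replicates 1, 2 and 3. The peak at eIF6, which keeps the large ribosomal subunit from joining the small one too early, held ranks 30, 19 and 31. CG18549, CG31145 and RluA-1, a pseudouridine synthase, lay between rank 32 and rank 55 in every replicate. All 6 thus lay among the 55 strongest peaks of each replicate's list.

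The other strong peaks lay at genes of different functions. Atf3 encodes a bZIP transcription factor and held ranks 86, 43 and 53 in replicates 1, 2 and 3. The gene aay encodes phosphoserine phosphatase, an enzyme of serine synthesis, and its peak held ranks 34, 93 and 77. E23, an ABC transporter induced by ecdysone, held ranks 50, 112 and 103. Sesn, the fly sestrin that restrains TOR signalling, held ranks 71, 125 and 88. The glycolytic enzyme gene Gapdh2 had the widest spread among the 20 strongest, with ranks 64, 105 and 238. Hpf1, a cofactor of poly(ADP-ribose) polymerase, had ranks 205, 69 and 104. The sodium-coupled transporter gene SLC5A11 had ranks 103, 115 and 141, and amon, a prohormone convertase, had ranks 163, 144 and 112. Hsp27, a small heat shock protein, had ranks 167, 132 and 117. The remaining 5 of the 20, CG11857, Jwa, CG1635, CG7639 and CG1142, lay between rank 56 and rank 166. Thus none of the 20 strongest fell below rank 238 in any replicate. All 20 summits were upstream of the TSS, from 71 bp at CG7639 to 227 bp at Atf3.

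**Figure D1:**
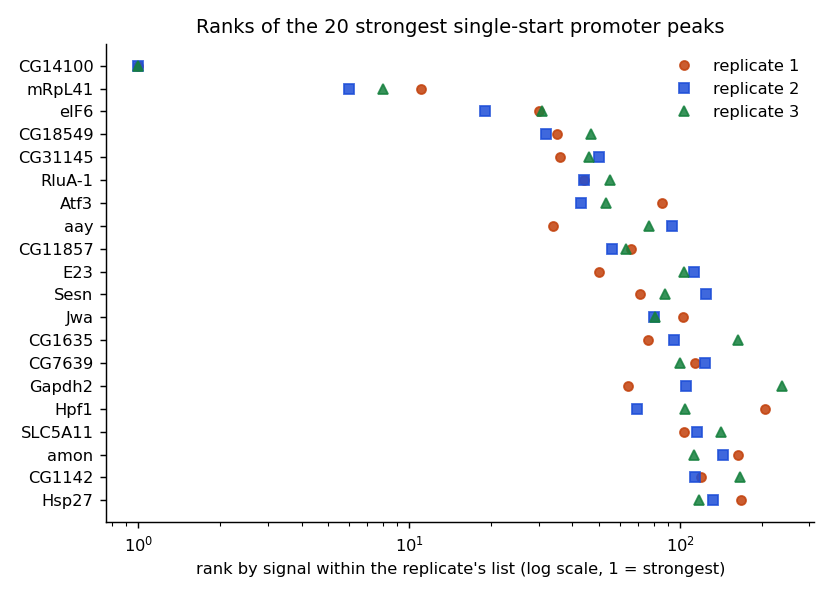
Rank by signal (log scale, 1 is strongest) of the 20 strongest single-start promoter peaks in each of the 3 replicate lists. CG14100 is at rank 1 in all 3, and the widest spread is that of Gapdh2, at 64, 105 and 238.

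Single-start summits lay mostly just upstream of the start. Of the 573, 537 (93.7%) were upstream of the nearest TSS, against 83.4% of head-to-head summits, 84.3% of multi-start summits and 86.7% of all 2008 promoter summits. The median position was 133 bp upstream (quartiles 219 and 68 bp upstream), against 75 bp upstream at head-to-head pairs and 155 bp upstream at multi-start genes. In bins along the promoter, 67 summits lay 500 to 301 bp upstream, 112 lay 300 to 201 bp, 182 lay 200 to 101 bp and 176 lay 100 to 1 bp upstream. Only 20 lay from the TSS to 99 bp downstream, and 16 lay 100 to 500 bp downstream. The separation of head-to-head summits from single-start summits is partly fixed by construction, since the nearest TSS of a pair at most 500 bp wide is close to any summit inside it. At multi-start genes too, distance and side are taken to the nearest of several TSSs, which bears on both comparisons with them.

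The same positions were found in the replicates. Single-start summits were upstream in 88.4%, 92.2% and 93.2% of cases in replicates 1, 2 and 3, with medians of 125.5, 130 and 135 bp upstream. The share upstream was higher than at head-to-head pairs by 8.79 ± 1.04 percentage points and higher than at multi-start genes by 8.44 ± 0.709 points (SD, n = 3). The median position minus that at head-to-head pairs was -56.2 ± 2.25 bp, further upstream, and minus that at multi-start genes it was 25.5 ± 9.53 bp, nearer the TSS. Each difference had the same sign in all 3 replicates. The exact two-sided sign permutation test gave p = 0.25 for each, the smallest value that 3 replicates allow, and 0.25 after adjustment over the 6 comparisons of this kind.

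**Figure D2:**
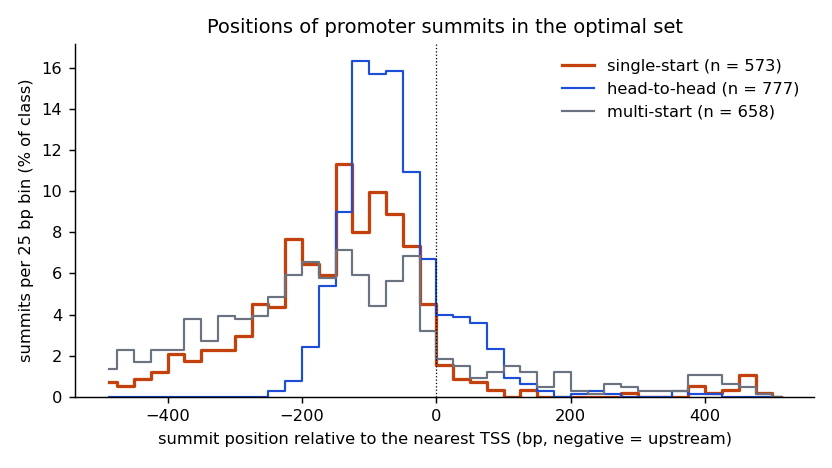
Summit position relative to the nearest protein-coding TSS (bp, negative is upstream) as the percentage of each class per 25 bp bin, for 573 single-start, 777 head-to-head and 658 multi-start peaks of the optimal set. Single-start summits peak about where their median lies, 133 bp upstream, and few lie past the TSS.

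The downstream summits were few, and the 5 furthest lay in an annotated UTR or intron. CG15247 had its summit 489 bp downstream in the 5' UTR. Those of CG8128, CG31612 and Mtp, the microsomal triglyceride transfer protein, lay 473, 472 and 470 bp downstream in an intron. The summit at amn, which encodes a neuropeptide precursor required for memory, lay 471 bp downstream in the 5' UTR. CG31612 was strong, at ranks 168, 182 and 113 in replicates 1, 2 and 3. Of all 573 summits, 465 (81.2%) fell between genes, 52 in an intron, 27 in a 5' UTR, 16 in an exon of a noncoding gene and 10 in a 3' UTR. The 3 in coding sequence were those of CG44812, Fntb (a farnesyltransferase subunit) and CG15531.

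Single-start peaks had lower signal than head-to-head peaks in every list, though 3 replicates cannot give a p under 0.25. The median signal in the optimal set was 123 for single-start peaks, against 148 for head-to-head, 130 for multi-start and 117 for peaks away from promoters. Among the 100 strongest optimal peaks were 13 single-start peaks, beside 32 head-to-head and 20 multi-start peaks. Within replicates, the median signal percentile of single-start peaks was 50.2, 48.6 and 47.0 in replicates 1, 2 and 3, against 58.4, 63.6 and 63.6 for head-to-head peaks. The difference was -13.3 ± 4.45 percentile points (SD, n = 3), lower in all 3 replicates (exact two-sided sign permutation p = 0.25, the smallest possible, adjusted 0.25). Against multi-start peaks, at 51.7, 53.9 and 53.5, the difference was -4.44 ± 2.57 points, again lower in all 3 replicates with the same p of 0.25 in the exact permutation test. The multi-start difference ranged from -6.43 to -1.53 points over the replicates, and was -0.304 points when only head-to-head pairs within 250 bp were set apart.

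Single-start peaks recurred between replicates about as often as optimal peaks in general. A peak was called matched where a summit among a replicate's top 3844 peaks lay within 200 bp. The same replicate peak could match several members, as at Cox17, where both summits matched the peak at rank 1263 of replicate 1. How often this happened was not counted. Of the 573, 360 (62.8%, Wilson 95% interval 58.8 to 66.7, which covers counting error only) were matched in all 3 replicates, against 70.4% of head-to-head, 64.9% of multi-start and 60.3% of other peaks, and 63.5% of all optimal peaks. A further 166 were matched in 2 replicates and 43 in 1. Of the 166, 78 lacked only replicate 1, 42 only replicate 2 and 46 only replicate 3. The 4 matched in none were those of Hacd2, Rnf11, CG8852 and CG14683, with optimal signals between 80.9 and 89.7. Of the members, 561 had a peak within 200 bp in the full list of every replicate. The optimal peaks are all taken from the pooled list, which was called on the same 3 libraries, so matching is no independent repeat.

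Matching asks for a place among a replicate's strongest peaks, so weaker members miss it more often by construction. Members were cut by signal into 4 bands of 143 or 144. In the strongest band (signal 195 to 1897) 143 of 144 peaks were matched in all replicates, and in the next band (signal 123 to 193) 137 of 143. The band after that had 66 of 143, and the weakest (signal 78.9 to 95.7) had 14 of 143. Across the 565 members found in each pair of full lists, ranks by signal correlated with Spearman's rho of 0.646 for replicates 1 and 2, 0.653 for 1 and 3 and 0.746 for 2 and 3, as a description across peaks that share their libraries. Median gaps between matched summits were 31, 29 and 26 bp for the same pairs.

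Few single-start genes carried a peak. Of 7877 single-start genes outside head-to-head pairs on the 6 arms, 552 (7.01%) were the nearest gene of a single-start summit, and in the replicates the share was 7.17% ± 0.307 (SD, n = 3). Counting any optimal summit within 500 bp of a TSS, 619 single-start genes (7.86%) had a peak, against 1547 of 3815 head-to-head genes (40.6%), 508 of 2253 multi-start genes (22.5%) and 2674 of all 13945 protein-coding genes (19.2%). One summit between head-to-head genes can count for both genes. In the replicates the shares were 7.97% ± 0.381 for single-start, 39.2% ± 0.342 for head-to-head and 22.5% ± 0.379 for multi-start genes. In the relaxed pooled list, 2540 single-start genes (32.2%) were the nearest gene of a single-start summit, the measure that gave 7.01% in the optimal set. A single-start peak was present in every replicate's top list at 342 of the 552 genes, and 812 single-start genes had one in any replicate's top list.

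Genes with a single-start peak had other surroundings than single-start genes with no optimal summit within 500 bp, of which there were 7258. Their median length was 2603 bp, against 1668 bp without a summit, and their median number of exons was 4 against 3. Only 40 of 552 (7.25%) had a single exon, against 21.6% without a summit. The TSS lay inside another gene for 60 of 552 (10.9%), against 20.5%. For the rest, the median distance to the next gene upstream was 679.5 bp, against 957.5 bp. That neighbour was transcribed in the same direction for 60.6%, against 64.0%. These are descriptions of the annotation, and no expression values were available to set beside them.

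Ribosomal protein genes had the highest share with a peak among the 29 gene lists. Of 45 single-start genes for cytoplasmic ribosomal proteins, the parts of the ribosome that translates most cell mRNA, 24 (53.3%) had a single-start peak, beside 7.01% of all single-start genes. In replicates 1, 2 and 3 the share was 46.7%, 60.0% and 51.1% (52.6% ± 6.79, SD, n = 3). The relaxed pooled list had a single-start peak at 41 of the 45 (91.1%), beside 32.2% of all. In that list 16 of 18 cell cycle genes (88.9%) and 6 of 7 Mediator genes (85.7%) had one too. The ribosomal protein peaks were of middling strength, with a median signal of 134 against 121 for the other 549 members. Of the 24, 16 were matched in all 3 replicates. The strongest was RpL23A, at ranks 184, 145 and 270 in replicates 1, 2 and 3, followed by RpL22 at ranks 459, 601 and 986 and RpL30 at ranks 427, 740 and 920. The ranks of others spread widely: RpL10 was at 17158, 1447 and 3006, and RpS3A at 5939, 1265 and 967. With the 1922 strongest optimal peaks alone, 15 of 45 (33.3%) remained, beside 3.47% of all single-start genes.

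Ribosomal protein summits also lay nearer the TSS. The median was 51.5 bp upstream for the 24, against 138 bp upstream for the other 549 members. Within 25 bp of the TSS lay 11 of 24 (45.8%), against 24 of 549 (4.37%). The summits of RpS29 and RpL24 were 2 bp upstream of the nearest TSS, and that of RpS28b was at the TSS. Those of RpL27A and RpL30 were 8 and 9 bp downstream. RpS28b had 1 TSS position. At RpS29, RpL24, RpL27A and RpL30 the TSSs spread over 55, 39, 47 and 69 bp, and the distance is to the nearest of them. Of all 573 members, only 42 were at genes with spread TSSs. The limit of 25 bp is also no wider than the median summit gaps of 26 to 31 bp between replicates. RpL23A (95 bp upstream), RpL23 (143 bp) and RpLP2 (213 bp) had summits at the more usual distance. In the replicates' top lists the median was 17, 55 and 37.5 bp upstream for 23, 27 and 24 ribosomal protein summits, against 128, 136 and 139 bp upstream for the others. Ribosomal summits were nearer by 97.8 ± 15.3 bp (SD, n = 3; exact two-sided permutation p = 0.25, the smallest possible). This difference was looked at after the positions had been seen.

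Other lists of translation genes were small and are read beside the 7.01% of all single-start genes. Of 26 single-start translation factor genes, 6 (23.1%; replicates 20.5% ± 2.22, SD, n = 3) had one. Besides eIF6 these were eIF3c, a subunit of the initiation complex eIF3, at ranks 747, 411 and 474 and 5 bp upstream of the TSS, and eEF1gamma, of the elongation complex that brings tRNA to the ribosome, at ranks 315, 707 and 966 and 37 bp upstream. The last 3 were eEF5 (42 bp upstream), the translocase eEF2 (4 bp) and eIF3d1 (76 bp). The TSSs of eIF3c, eEF1gamma, eEF5 and eEF2 spread over 81, 92, 55 and 48 bp, and their distances are to the nearest TSS. Of 7 ribosome biogenesis genes 3 had a peak (42.9%; replicates 33.3% ± 8.25, SD, n = 3), the nucleolar proteins Nopp140, NHP2 and nop5. Of 20 single-start mitochondrial ribosomal protein genes 2 had a peak in the optimal set, mRpL41 and mRpL4, and 4 of 20 had one in the top list of each replicate. Of 10 aminoacyl-tRNA synthetase genes, beta-PheRS alone had one. With 1 or 2 genes, the optimal counts of the last 2 lists lie near the share over all single-start genes.

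**Figure D3:**
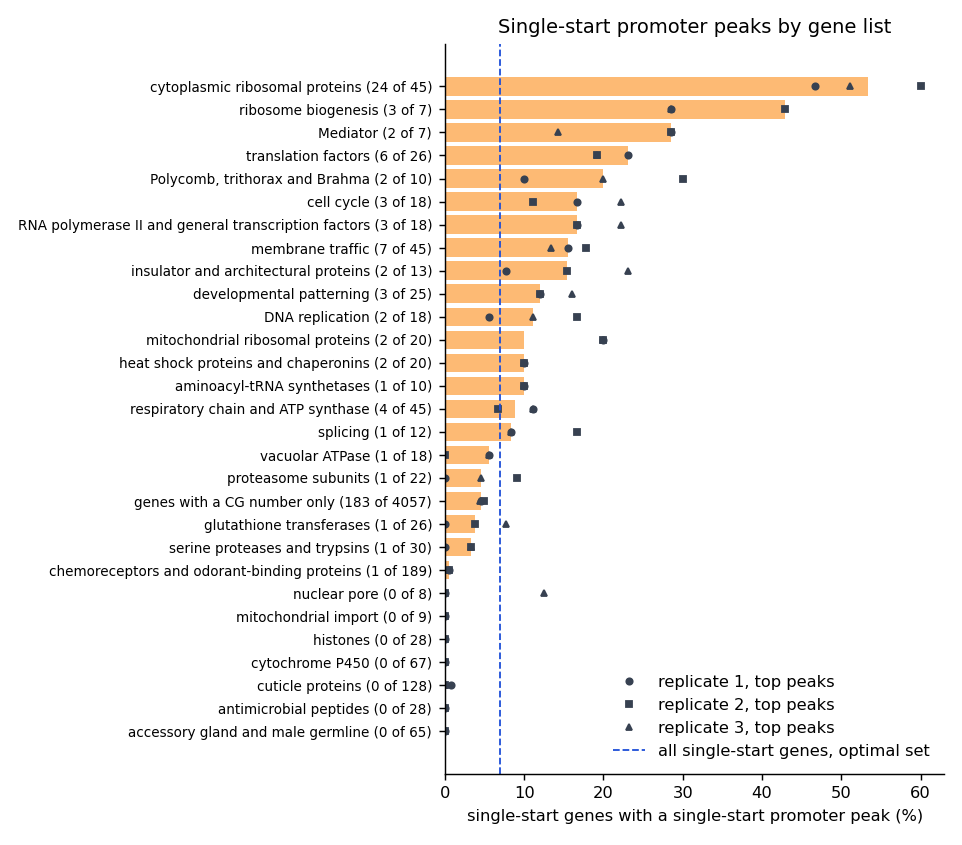
Percentage of single-start genes in each list that had a single-start promoter peak: bars for the optimal set, symbols for the top 3844 peaks of each replicate, dashed line for all single-start genes (7.01%). Cytoplasmic ribosomal proteins reach 53.3%, and lists such as cuticle proteins and chemoreceptors lie at or near 0.

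The other lists are also set beside the 7.01% of all single-start genes. Membrane traffic genes had peaks at 7 of 45 (15.6%; replicates 15.6% ± 2.22), among them deltaCOP, a coat subunit of Golgi vesicles (ranks 815, 440 and 492), Vps15, a regulator of the lipid kinase Vps34, and Sec61beta, of the channel into the endoplasmic reticulum. The RNA polymerase II and general transcription factor list had 3 of 18, the polymerase subunits Polr2F (ranks 803, 336 and 426) and Polr2E and the TFIIA subunit TfIIA-S. The Mediator list had 2 of 7, MED4 and the kinase Cdk8. The cell cycle list had 3 of 18, BubR1 of the spindle checkpoint, CycH, the cyclin of the CDK-activating kinase, and Cdk8 again. Polycomb, trithorax and Brahma genes had 2 of 10, esc, of the complex that methylates histone H3, and pho. Insulator and architectural protein genes also had 2, out of 13, row and the cohesin subunit gene SMC1. Developmental patterning genes had 3 of 25, nkd, an inhibitor of Wingless signalling, bcd, the maternal anterior determinant, and N, the Notch receptor. DNA replication genes had 2 of 18, the helicase subunit Mcm2 and the polymerase subunit PolA1. Heat shock and chaperonin genes had 2 of 20, Hsp27 and Hsp26. With numbers this small, 1 gene moves a share by several percentage points, and the heat shock, DNA replication and patterning shares lie near that of all single-start genes.

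Respiratory chain and ATP synthase genes were close to the background at 4 of 45 (8.89%), with the ATP synthase subunits blw and ATPsynB and the complex I subunits ND-B17 and ND-B22. Splicing (Prp31, 1 of 12), vacuolar ATPase (VhaM9.7-c, 1 of 18) and proteasome genes (Rpn11, 1 of 22) had 1 each. Several lists held 1 gene or none. Among 189 chemoreceptor and odorant-binding protein genes Obp99b alone had a peak (0.529%; relaxed pooled list 6.35%, beside 32.2% of all). Among 26 glutathione transferase genes GstT4 alone had one (3.85%), but 10 of 26 (38.5%) did in the relaxed list. Serine proteases and trypsins had SP2353, 1 of 30 (3.33%; relaxed 6.67%), a gene that entered the list by its symbol. Lists of about 30 genes would hold only a few at the share of all single-start genes. No single-start optimal peak lay at 128 cuticle protein genes, 67 cytochrome P450 genes, 65 accessory gland and male germline genes, 28 histone genes or 28 antimicrobial peptide genes, nor at the 9 mitochondrial import and 8 nuclear pore genes. In the relaxed list the cuticle genes had 9.38%, the cytochrome P450 genes 16.4%, the accessory gland and male germline genes 9.23%, the histone genes 3.57% and the antimicrobial peptide genes 17.9%, while mitochondrial import and nuclear pore genes had 33.3% and 37.5%. The cuticle and accessory gland lists share 19 genes by symbol. Genes known only by a CG number had 183 of 4057 (4.51%; replicates 4.66% ± 0.27), and 481 of the 552 genes were in no list besides that of CG numbers. All lists are symbol patterns, and genes of a list are not independent of each other.

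The arms differed little outside chromosome 4. The share of single-start genes with a peak was 7.53% on 2L, 6.60% on 2R, 7.58% on 3L, 6.84% on 3R and 6.19% on X. Over replicates the X gave 6.16% ± 0.476 and 2L gave 7.62% ± 0.0391 (SD, n = 3). On chromosome 4, 6 of 38 genes (15.8%) had one, namely PlexA, RpS3A, Gyf, pho, Rnf11 and Crk. This value rested on replicates 2 and 3: in replicates 1, 2 and 3 it was 2.63%, 18.4% and 21.1%. PlexA, a semaphorin receptor, was at ranks 457, 370 and 315, while pho, a DNA-binding Polycomb group protein, was at 9380, 1642 and 2720. Of the 6 genes, only PlexA was matched in all 3 replicates.

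Single-start summits sat in AT-rich DNA, as did the summits of the other classes. Within 50 bp of the summit the GC content averaged 35.8% ± 9.73 (SD over 573 peaks), against 43.7% in windows of the same width centred 400 bp to either side, a difference of -7.82 percentage points. It was lower at 422 of 573 summits (73.6%). The same difference was -15.0 points at head-to-head summits, -7.44 at multi-start summits and -9.39 at peaks away from promoters. The mean at the summit itself was 33.3%, 35.3% and 33.4% for these classes, so that of single-start summits was the highest. The flank windows of a promoter reach into the gene on one side, and mean GC content is higher there with or without a peak. Along the promoter, genes with a single-start peak had their lowest mean GC content of 31.1% at 200 to 181 bp upstream of the TSS, and genes without a summit had theirs in the same bin at 36.6%. In the last 20 bp before the TSS the order was the other way, at 49.1% with a peak and 44.5% without. From 400 to 499 bp downstream the means were 49.0% with a peak and 47.0% without. The strongest band of members had 33.5% within 50 bp of the summit, against 37.0%, 36.0% and 37.0% in the other bands. GC content can affect how well fragments are recovered and sequenced, and its part in peak calling was not tested.

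**Figure D4:**
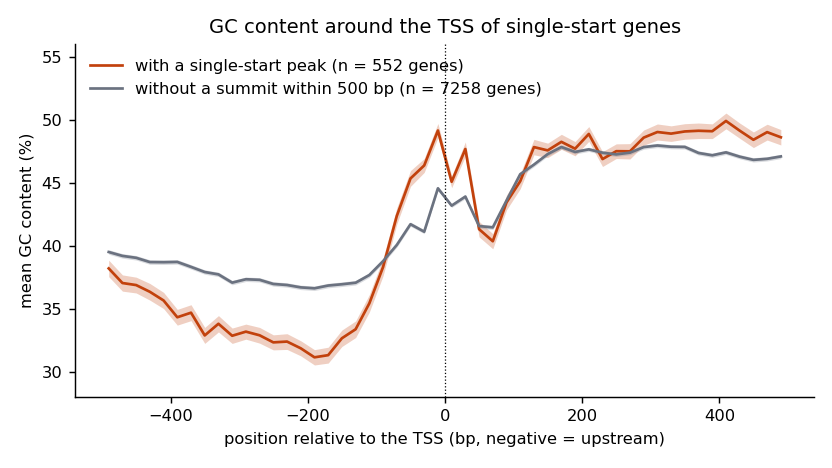
Mean GC content (%) in 20 bp bins around the TSS, in the direction of transcription, for 552 genes with a single-start peak and 7258 single-start genes without an optimal summit within 500 bp; shading is the standard error over genes. The curve of genes with a peak dips lower upstream, to 31.1% against 36.6%.

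All 7-base words were ranked by their excess over the flanking windows on arms 2L, 3L and X, and counted on the arms not used for ranking. The leading word was TATTTAA, in 22 of 257 members (8.56%) on the other arms, against 12.5 (4.86%) for the mean of the 2 flanks. All 10 leading words were made of A and T alone, as were 43 of the leading 100, which goes with the lower GC content of the summits. Since A and T words follow base composition, words with 3 or more G or C were ranked too, a step added after the first ranking had been seen. The leading one was CAACACT, in 13 of 257 members (5.06%) on the other arms, against 3.5 (1.36%) in flanks. The word ACTATCG, which overlaps the BEAF core, ranked 4 among them and was in 19 of 257 (7.39%), against 1.0 (0.389%) in flanks. It was chosen after its counts were seen, so these arms are no independent check of it. Of the other words down to rank 6, AACACTG and CTATCGA were in 7 and 16 members, against 3.5 and 1.0 in flanks. They are CAACACT and ACTATCG shifted by a single base, so they can count the same sites again. AAACTGC and GCAGCAC were in 3 and 5, against 6.5 and 5.5, and so were no more frequent than in flanks.

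Over all 573 members, CAACACT lay within 50 bp of 34 summits (5.93%), against 6.0 (1.05%) in flanks, and near 7.46% of head-to-head, 6.08% of multi-start and 1.14% of other summits. In promoters, 250 bp before to 50 bp after the TSS, it was in 12.7% of genes with a single-start peak, against 4.86% without a summit and 5.45% of all 7877. ACTATCG lay at 33 summits (5.76%), against 3.5 (0.611%) in flanks, and in 13.6% of promoters with a peak, against 4.59% without and 5.32% of all. It was near 6.56% of head-to-head, 4.10% of multi-start and 0.436% of other summits. Only 2 members had both words, and 78 had at least 1 of the pair or the DRE. Head-to-head summits thus held both words at a higher share than single-start summits. The words were picked by their excess over these flanks on 2L, 3L and X, which hold 21 of the 34 CAACACT summits and 14 of the 33 ACTATCG summits. The contrasts over all members, and the promoter shares that include the same genes, are therefore no independent check of either word.

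Among fixed motifs, those of broadly used promoters were more frequent at single-start summits than in flanks, which also differ in distance from the TSS. The DRE was at 20 summits (3.49%, flanks 0.611%) and in 11.2% of promoters with a peak, against 5.81% without and 6.30% of all. Ohler motif 1 was at 14 summits (2.44%, flanks 0.436%) and in 9.96% of such promoters, against 4.56% without and 4.95% of all. The BEAF core CGATA, bound by the insulator protein BEAF-32, was at 23.9% of summits (flanks 11.4%) and in 54.5% of promoters with a peak, against 41.0% without and 42.0% of all. Ohler motif 7, searched as CATCNCT, was at 6.81% (flanks 3.40%) and in 17.9% of promoters, against 10.8% without and 11.4% of all. Ohler motif 6, searched as GTATNTTT, was at 5.76% (flanks 2.88%) and in 16.3% of promoters, against 12.7% without and 13.0% of all. The E-box CAGCTG was as frequent at summits as in flanks, 4.36% each, but was in 21.4% of promoters with a peak, against 14.6% without and 15.1% of all. Head-to-head summits held more DRE (4.89%), BEAF core (26.3%), Ohler motif 7 (8.88%), Ohler motif 6 (6.05%) and E-box (6.18%), but less Ohler motif 1 (1.67%). Multi-start summits had the DRE at 1.52%, the BEAF core at 19.5% and Ohler motif 1 at 1.06%. Their shares of Ohler motif 7, Ohler motif 6 and the E-box were 6.69%, 4.10% and 4.56%.

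The TATA box behaved differently in the 2 comparisons. It was at 21.8% of summits, against 11.1% in flanks, but in 43.7% of promoters with a peak, against 47.4% without and 47.2% of all. Head-to-head, multi-start and non-promoter summits had the TATA box at 22.9%, 18.8% and 21.0%, so its share was not particular to single-start summits. The median distance of the TATA box at single-start summits was 179 bp upstream of the TSS, whereas a working TATA box lies immediately upstream of the start. The Initiator differed little at summits, at 17.5% against 15.7% in flanks, and was in 49.5% of promoters with a peak, against 54.9% without and 54.5% of all. GAGAGAG, the GAGA factor motif, was at 1.05% of summits (flanks 1.48%) and yet in 11.6% of promoters with a peak, against 5.36% without and 5.76% of all. The homeodomain motif TAATTA was at 9.77% of summits (flanks 6.11%) and in 20.7% of promoters, against 19.8% without and 19.8% of all. Head-to-head, multi-start and non-promoter summits had TAATTA at 12.1%, 9.12% and 10.1%. TATAAA and TAATTA hold only A and T, and flanks had a higher GC content than summits.

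**Figure D5:**
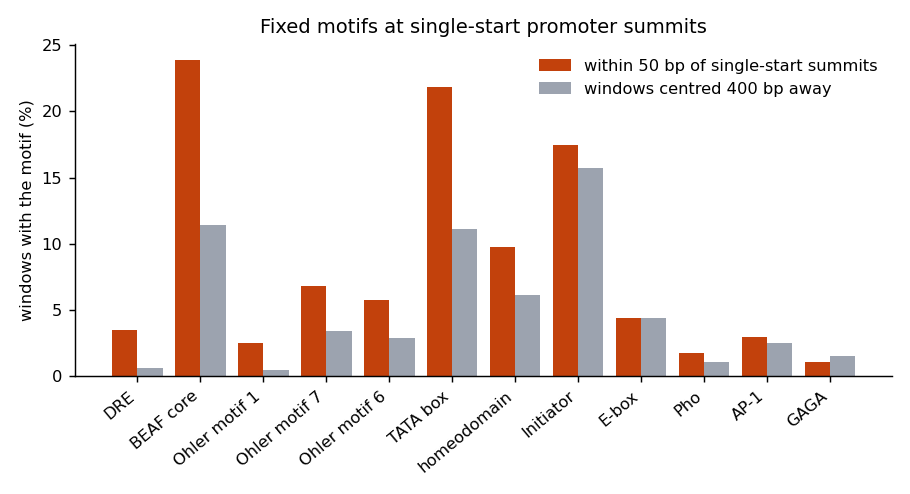
Percentage of 101 bp windows that hold a fixed motif, at the 573 single-start summits and in windows centred 400 bp away (mean of both sides). The BEAF core is at 23.9% against 11.4% and the TATA box at 21.8% against 11.1%, while GAGA is at 1.05% against 1.48%.

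The other fixed motifs were rare at summits, and most were no more frequent there than in flanks. Pho (GCCATNTT) was at 10 summits, against 6.0 in flanks, and 7 of the 10 were in the strongest band of members. AP-1 was at 17, against 14.0 in flanks. Grainyhead (ACNGGTT) was at 13, against 16, NRF1 type (TGCGCA) at 14, against 18.5, ETS (CCGGAA) at 15, against 20, and the CTCF core (GGNGGCGC) at 6, against 10.5. The Su(Hw) core (TGCATACTT) was at 2 summits and in 0 flanks, Zelda (CAGGTAG) at 1, against 4.0, and CREB (TGACGTCA) at 0, against 1.0. Of all 7877 promoters, which are longer windows, 5.99% held Pho, 6.44% AP-1, 9.65% Grainyhead, 6.54% NRF1 type, 6.86% ETS, 1.96% the CTCF core, 0.559% the Su(Hw) core, 1.87% Zelda and 0.419% CREB. With strength, the TATA box was at 43 of 144 summits in the strongest band (29.9%), and at 22.4%, 16.8% and 18.2% in the next 3 bands. The strongest band also had the lowest GC content, 33.5% against 37.0%, 36.0% and 37.0%, and TATAAA holds only A and T. Other words of A and T alone had other orders from the strongest to the weakest band. TATTTAA was at 7.64%, 12.6%, 15.4% and 11.2% of summits, and TAATTA at 10.4%, 11.9%, 10.5% and 6.29%. The part of base composition in the order of the TATA box was not tested. Ohler motif 1 was at 1, 3, 6 and 4 summits from the strongest to the weakest band, Ohler motif 7 at 3, 8, 15 and 13, and ACTATCG at 4, 11, 10 and 8. A match is only a stretch of letters and shows no binding by the named factor.

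At 21 genes 2 single-start peaks met the rule. At 17 of them the summits were 199 to 215 bp apart. The commonest distance from a peak's start to its summit was 202 bp, and this spacing is close to that distance. At the strongest such gene, E23, the summits lay 207 and 422 bp upstream within 1 listed interval, with optimal signals of 556 and 162, and those of Glyp, the glycogen phosphorylase, lay 245 and 44 bp upstream, also in 1 interval. CG7379 had summits 87 and 288 bp upstream. At the other 4 genes, CG11151, bchs, CG43116 and CG8195, 1 summit lay upstream and 1 downstream of the TSS, between 548 and 700 bp apart. At CG11151 they were 208 bp upstream and 454 bp downstream, at bchs 109 bp upstream and 439 bp downstream.

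The name of the class covers protein-coding starts of 1 gene only. For 531 members the nearest gene had 1 annotated TSS position, and for 42 the TSSs spread over up to 100 bp. Another protein-coding gene started within 500 bp of 66 summits without forming a head-to-head pair, and a noncoding gene started within 500 bp of 42. These were 31 ncRNAs, 4 tRNAs (near CG8490, CG13605, CG30122 and tud), 3 snoRNAs (near RpS29, RpS12 and RpL15), 3 pseudogenes (near CG10068, CG10555 and bys) and 1 snRNA (near ND-B17). Among the 66 were Acbp1 and Piezo, on opposite strands, with summits 200 and 219 bp upstream. A peak with another start so close, coding or noncoding, cannot be assigned to the nearest gene over that neighbour.

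Some peaks lay close to the limits of the rule. Just inside the 500 bp limit lay CG34136 and CrebA, 496 and 493 bp upstream, and just outside lay CG42571 at 506 bp upstream and Pen at 508 bp downstream. CG11583 and CG15237 lay 627 and 667 bp from a head-to-head pair, while CG8728 and CG42837 lay 491 and 462 bp from one and were left out. CG42724 and vib had TSSs spread over 99 and 93 bp, while CG2811 and Ugalt, with 103 and 107 bp, counted as multi-start. Ugalt, the UDP-galactose transporter gene, had an optimal signal of 1623, so the limit on TSS spread kept out a peak stronger than every single-start peak but that of CG14100.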

How the data were processed

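ChIP-seq peak lists of 3 biological replicates were used as deposited by the authors on dm6. The listings that accompany the deposited files record a control alignment for every replicate list. They trace the pooled list to the 3 alignments together, and the optimal list to the pooled list plus those of the replicates. Chromatin was sonicated to 200 to 800 bp, per the labels' protocols. Neither aligner nor peak caller is named in the sources used here. Column 7, the signal deposited by the authors, has a scale that depends on depth, which is unknown, so it was used only to rank peaks within a list.

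Summits were placed against Ensembl release 115 (BDGP6) on the 6 arms, and the RefSeq sequence of the same assembly. The rule for promoter classes was applied to the optimal list and to the 3844 strongest peaks of each replicate. Values over replicates are mean ± SD, and class differences were tested with the exact two-sided sign permutation over 3 replicates, with Benjamini-Hochberg adjustment over 6 comparisons. Base composition and 19 fixed motifs were read in windows 50 bp to either side of the summit, on both strands for motifs, and in windows centred 400 bp to either side. The classes and word counts were tested on simulated data. Biosamples differ between replicates, per the labels. The signal tracks, the control library and the dm3 lists were not used here.

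The members and lists were chosen with earlier results of these data known. Genes were named by a rule: the 20 strongest members matched in all replicates, up to 3 members per gene list, 2 on each side of each limit, up to 5 genes with 2 peaks, the 5 furthest downstream and classes of 5 or fewer. Further members named in the ribosomal, translation, chromosome 4 and 2-peak paragraphs, and 6 of the 12 sequences, were chosen after values were seen. Alternatives were other windows, pair and spread limits, the 1922 strongest peaks, other matching distances and leaving out each replicate. Versions were Python 3.11.15, numpy 2.4.6, pandas 2.3.3, scipy 1.17.1 and matplotlib 3.10.9.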

Additional observations from a re-analysis of the deposited data

How the results depend on the processing

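Of 89 alternative values, 58 moved by less than 1 SD over replicates or kept direction and side of the threshold, and 31 moved further. None changed sign, but shares cannot. All 9 alternatives of each signal difference were among the 58 since they kept direction. They include -0.304 beside -4.44 for multi-start peaks, a move larger than the SD of 2.57. The share of optimal peaks that were single-start (14.9%) became 11.7% with a TSS window of 250 bp, 17.0% with 1000 bp, 23.1% and 12.3% with head-to-head pairs within 250 and 1000 bp, and 15.8% with a TSS spread of 200 bp. The share of single-start genes with a peak (7.01%) became 5.71%, 7.91%, 9.33% and 6.47% under the first 4 of these, and 3.47% with the 1922 strongest peaks. The share upstream (93.7%) became 88.7% with 1000 bp. The median position (-133 bp) became -113 bp with 250 bp and -138.5 bp with the 1922 strongest peaks. The share matched in all replicates (62.8%) became 97.5% with the 1922 strongest peaks, 56.5% with matching within 100 bp and 95.6% against the top 10000 peaks. The GC difference (-7.82 points) became -9.62 with the 1922 strongest peaks. The share with the leading word (8.56%) became 22.2% in windows of 100 bp on either side (TAAATAA), 10.4% when ranked on 2R, 3R and 4 (TAAAAAA) and 5.06% for words with 3 or more G or C, the last a setting chosen after seeing the data.

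Leaving out a replicate meant using the matched top peaks of the other 2. The share of optimal peaks ranged from 14.6% to 15.2%, the share upstream from 93.1% to 94.7%, the median position from -138 to -135 bp, the share of genes with a peak from 4.93% to 5.38%, the share matched from 70.2% to 76.4%, the GC difference from -8.86 to -8.25 points and the share with the leading word from 9.69% to 14.1%, with AAATAAA leading without replicate 2 (12.7%, flanks 10.2%) or 3 (14.1%, flanks 9.11%), beside flanks of 4.86% for the 8.56%. The signal differences ranged from -15.8 to -11.6 (head-to-head) and from -5.89 to -3.44 (multi-start). Ribosomal protein genes with a peak were 35.6% to 44.4%.

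The signal difference to head-to-head peaks ranged from -20.5 to -10.0 percentile points over all alternatives and that to multi-start peaks from -5.89 to -0.304, the last with head-to-head pairs within 250 bp. Class differences were taken within each replicate, and no replicate block between groups exists because the 3 samples form 1 group. Sequencing depth is unknown, so whether a gene without a peak lacks binding cannot be told from these lists. Where values moved with a setting that changes which peaks or genes are counted, that change of members is part of the alternative; the cause was otherwise not tested.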
